A study of Mus musculus with 17 samples.

Results

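CEBPB binding was compared between 2 ChIP-seq libraries, 1 from macrophages given interferon gamma (IFNg) for 4 h and 1 from untreated macrophages. The members are the peaks of these lists on chromosomes 1 to 19, X and Y, less any overlapping a peak of the input list, which removed 0 peaks from either. This left 21499 IFNg peaks and 5540 untreated peaks of 144384 peaks in the 16 ChIP lists of the series. An IFNg peak with at least 1 bp in common with an untreated peak was called shared, and the others IFNg-only.

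All cells were bone marrow-derived macrophages of C57BL/6 mice, grown in medium conditioned by L929 cells, a source of the growth factor M-CSF, and used on day 7 of differentiation. The titles of the CEBPB, IRF1 and JUNB libraries mark the cells as wild type. The IFNg group received 100 ng/ml for 4 h, and the untreated group received no cytokine; the labels do not give the number of mice behind a library. Chromatin was precipitated with the anti-CEBPb antibody sc-150X. Other lists used below came from the same kind of cells: IRF1 and JUNB after 4 h of IFNg and untreated, CEBPB after 4 h of IFNg with IL4 (10 ng/ml), and STAT6 after 2 h of IFNg with IL4 and after 2 h of IL4. Each group was 1 library, so no p-values are given, and the exact Clopper-Pearson 95% intervals cover counting error only.

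CEBPB (C/EBPβ) is a leucine zipper transcription factor of myeloid cells that binds, as a dimer with itself or a relative, the palindrome TTGCGCAA and looser forms of it. It is known for its role at acute phase, cytokine and granule genes. IFNg is the cytokine of classical macrophage activation: it induces IRF1 and raises chemokine, guanylate-binding protein and antigen presentation genes, whose promoters often hold GAS and interferon response elements.

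Promoter letters are shown first for genes with a CEBPB summit in the 250 bases before the transcription start, chosen after their values were seen. Serpina3f carried the strongest IFNg-only peak, Cxcl10 and Gbp5 are IFNg response genes with an IFNg-only peak at the start, and Il6, Ptgs2 and Prmt3 carried shared peaks. The sequences are from RefSeq on GRCm38.p6, run 5′ to 3′ along the gene and end at the base before the start. Capitals mark the C/EBP core TTGCNNAA, read on both strands (Serpina3f, Il6, Ptgs2, Prmt3), or the interferon response element (GAAA, any 2 bases, GAAA), read on both strands (Cxcl10, Gbp5).
Serpina3f: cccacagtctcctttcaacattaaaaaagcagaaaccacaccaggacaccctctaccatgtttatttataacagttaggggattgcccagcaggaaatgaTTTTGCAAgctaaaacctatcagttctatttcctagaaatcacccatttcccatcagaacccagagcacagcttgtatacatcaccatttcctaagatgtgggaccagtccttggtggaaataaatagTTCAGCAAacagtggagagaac
Cxcl10: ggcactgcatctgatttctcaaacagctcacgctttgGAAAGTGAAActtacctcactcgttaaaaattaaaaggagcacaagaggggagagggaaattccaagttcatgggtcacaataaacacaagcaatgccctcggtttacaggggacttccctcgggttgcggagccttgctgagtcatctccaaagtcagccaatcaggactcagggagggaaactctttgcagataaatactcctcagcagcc
Gbp5: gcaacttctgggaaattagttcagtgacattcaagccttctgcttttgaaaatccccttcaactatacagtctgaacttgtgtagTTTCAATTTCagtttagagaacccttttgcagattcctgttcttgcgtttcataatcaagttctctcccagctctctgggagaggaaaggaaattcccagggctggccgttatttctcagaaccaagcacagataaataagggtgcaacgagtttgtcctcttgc
Il6: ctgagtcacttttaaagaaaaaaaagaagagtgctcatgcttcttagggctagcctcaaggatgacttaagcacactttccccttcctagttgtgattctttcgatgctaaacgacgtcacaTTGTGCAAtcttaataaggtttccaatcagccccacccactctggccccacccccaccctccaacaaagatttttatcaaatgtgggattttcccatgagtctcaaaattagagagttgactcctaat
Ptgs2: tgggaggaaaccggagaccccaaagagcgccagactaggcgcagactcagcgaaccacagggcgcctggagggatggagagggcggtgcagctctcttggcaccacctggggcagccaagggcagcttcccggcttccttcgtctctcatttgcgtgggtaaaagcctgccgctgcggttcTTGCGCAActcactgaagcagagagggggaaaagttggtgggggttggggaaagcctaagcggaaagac
Prmt3: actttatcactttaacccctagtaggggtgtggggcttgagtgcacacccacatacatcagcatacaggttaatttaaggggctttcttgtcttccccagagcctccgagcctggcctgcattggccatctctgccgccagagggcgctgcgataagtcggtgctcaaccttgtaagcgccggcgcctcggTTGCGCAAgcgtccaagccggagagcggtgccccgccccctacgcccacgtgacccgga
These windows are chr12:104214294-104214543 (plus strand), chr5:92348890-92349139 (minus strand), chr3:142496684-142496933 (plus strand), chr5:30012864-30013113 (plus strand), chr1:150099781-150100030 (plus strand) and chr7:49778108-49778357 (plus strand), in the order shown.

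The CEBPB summit lay close to the marked letters in most of these windows, which were chosen after their values were seen. Genes read but not shown went the other way. Il1rn, Il1b and Csf3r had a shared summit and no C/EBP core in the window. At Rsad2 the IFNg-only summit was 229 bases before the start and the interferon response element began at 120. At Serpina3f, a serine protease inhibitor gene, the IFNg-only summit was 142 bases before the start and the core TTTTGCAA began 150 bases before it. At Ptgs2, the inducible cyclooxygenase gene, the shared summit was 65 bases before the start and the palindrome TTGCGCAA began at 69. At Il6, which encodes interleukin 6, the summit was at 126 and the core TTGTGCAA began at 128. At Prmt3, an arginine methyltransferase gene, the summit was at 64 and TTGCGCAA began at 59. At Cxcl10, a chemokine gene, the IFNg-only summit was at 216 and the element GAAAGTGAAA began at 213. At Gbp5, a guanylate-binding protein gene, the IFNg-only summit was at 114, inside the window but away from the element TTTCAATTTC that began at 165.

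Across all promoters with a summit, windows of 250 bases before to 50 after the start were searched. The core TTGCNNAA was in 22.1% of the 664 windows with an IFNg-only summit (19 to 25.5%), against 46.7% of the 259 windows with a shared summit (40.5 to 53.0%) and 10.2% of all 21238 windows. The palindrome TTGCGCAA, which is a subset of the core, was in 1.51% of IFNg-only windows, 10.4% of shared windows and 0.221% of all windows. Where a core was present, it was centred within 25 bp of the summit in 66.0% of 147 IFNg-only windows (57.7 to 73.6%), against 86.0% of 121 shared windows (78.5 to 91.6%). Over all IFNg peaks the authors' −log10 p had a median of 16 for IFNg-only and 84.1 for shared ones. These shares and those of the other sites below were not matched for strength, and its part was not tested.

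The interferon response element was in 6.33% of IFNg-only windows (4.60 to 8.45%), in 2.70% of shared windows (1.09 to 5.49%) and 3.34% of all windows. It lay within 25 bp of the summit in 9 of 42 IFNg-only windows and 3 of 7 shared windows. The composite C/EBP-ATF site TGATGCAA was in 2.41% of IFNg-only windows, 6.95% of shared windows and 0.866% of all windows. The AP-1 site TGANTCA was in 8.89% of IFNg-only windows, 7.34% of shared windows and 6.99% of all windows, and the GAS element TTCNNNGAA in 7.68%, 8.88% and 7.69%. The intervals of the IFNg-only and shared windows overlapped for the AP-1 and GAS sites and the interferon response element, and windows of different starts of 1 gene can share bases. A match in these letters is a description of the window, not a mapped site.

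Nearly every untreated peak was still listed with IFNg, whose list held 3.88 times as many peaks. Of 21499 IFNg peaks, 15992 (74.4%) were IFNg-only and 5507 were shared (25.6%, interval 25 to 26.2%). Of 5540 untreated peaks, 5532 overlapped an IFNg peak (99.9%, interval 99.7 to 99.9%) and 8 (0.144%) did not. The IFNg peaks covered 6.68 Mb and the untreated peaks 1.5 Mb. The IFNg-only share was similar along the genome, between 71.8% on chromosome 2 and 77.7% on X, leaving aside Y with 4 IFNg peaks.

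The shared peaks were the strong end of the IFNg list. The IFNg list was cut into 10 equal strength classes by the authors' −log10 p. The weakest class held 7 shared peaks of 2150 (0.326%), and the share in the following classes was 0.605, 1.40, 1.72, 4.33, 9.35, 20.6, 45.5 and 77.3%. In the strongest class 2043 of 2149 peaks were shared (95.1%), which leaves 106 IFNg-only peaks there. IFNg-only peaks had a median −log10 p of 16 and a median width of 242 bp, and shared peaks in the same list had 84.1 and 437 bp. Since presence in the untreated list rests on a detection threshold, a weak IFNg-only peak is a site that was not called in untreated cells, not one shown to be unbound there.

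**Figure D1:**
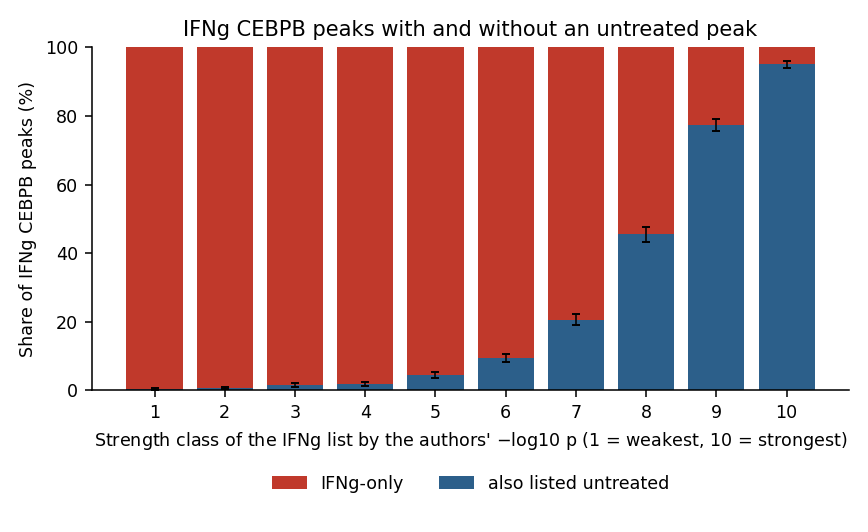
Share of IFNg CEBPB peaks that were IFNg-only (red) or also listed untreated (blue) in each of 10 equal strength classes of the IFNg list by the authors' −log10 p, with exact 95% binomial intervals of the shared part. The shared part is 0.326% in the weakest class and 95.1% in the strongest.

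The signal at shared sites was higher with IFNg almost throughout. The number of fragments over a summit, recovered from the authors' fold and −log10 p and scaled to the depth of the input, is called the summit signal here. The libraries had similar depth, 1.33 times the input for IFNg and 1.46 times for untreated, and the signal could be recovered for 99.0% of IFNg peaks and 99.6% of untreated peaks. At 5503 site pairs with both values the median summit signal was 80.3 with IFNg and 30.2 untreated, and the median ratio of IFNg to untreated was 2.42 (quartiles 2.03 and 2.89). The ratio was above 1 at 5465 pairs (99.3%) and below 1 at 38 (0.691%). The summits lay close together, with a median distance of 10 bp and 94.2% within 50 bp.

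The ratio was of similar size at weak and middling untreated sites and lower at the strongest. Over 5 equal classes of the pairs by untreated signal, from weak to strong, its median was 2.57, 2.54, 2.53, 2.47 and 2.2. The untreated signal is also the denominator of the ratio, so these medians cannot tell whether the strongest sites differ. As a description over these pairs, which share the input and a library each, Pearson's r of the log2 signals was 0.823 and Spearman's rho 0.829. With 1 library each, a higher yield of the IFNg precipitation and more binding at all sites cannot be told apart. When the IFNg signals were divided by 2.42, an alternative chosen after seeing the data, 5649 of 15772 IFNg-only peaks (35.8%) still reached the lowest untreated −log10 p of 5.27, 1992 (12.6%) reached 10.1, the upper bound of the weakest of 10 untreated strength classes, and 368 (2.33%) reached the untreated median of 20.4. Of the shared peaks 5338 of 5502 (97.0%) reached the lowest untreated value.

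**Figure D2:**
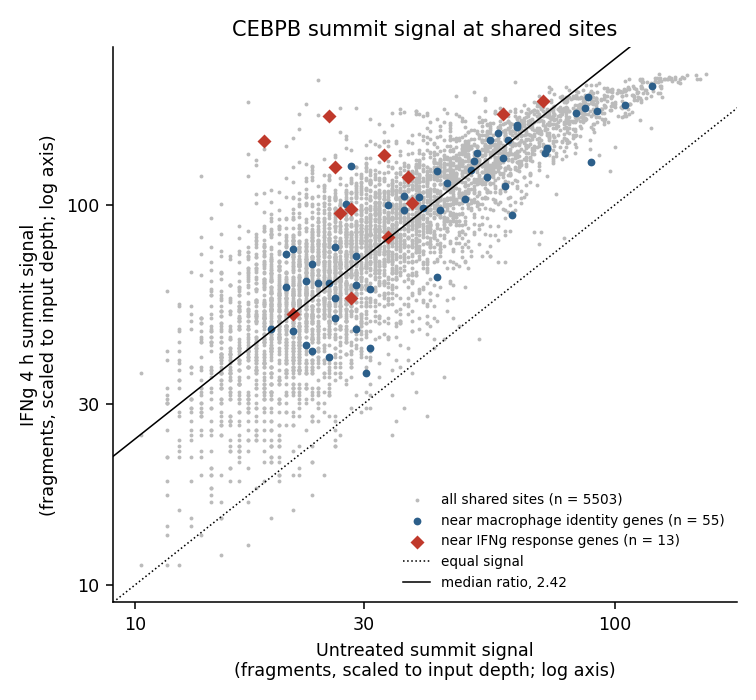
Summit signal of each of 5503 shared sites with IFNg (vertical axis) and untreated (horizontal axis), in fragments scaled to input depth on log axes, with sites near IFNg response genes in red and near macrophage identity genes in blue. The solid line is the median ratio of 2.42 and the dotted line equal signal: 12 of 13 red points lie above the median ratio, against 27 of 55 blue points.

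Sites near IFNg response genes stood high among the shared sites. Of the 13 pairs within 20 kb of the 35 IFNg response genes, 12 had a ratio above 2.42, with a median of 3.20 and a range of 2.03 to 7.93, and 4 were above 3.91, the 95th percentile of all pairs. Of 55 pairs near 25 macrophage identity genes 27 were above 2.42, with a median of 2.28, and of 31 pairs near 25 genes linked to C/EBP factors in myeloid cells 15 were, with a median of 2.36. The 37 pairs near 30 inflammatory and AP-1 genes had a median of 2.52. By definition 50.0% of all pairs lie above the median, and the members of a list can share a site.

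The sites at both ends of the order of ratios were named after their values were seen. Of the 12 highest, 6 overlapped an IRF1 peak after IFNg and 8 a JUNB peak after IFNg, against 0 and 0 of the 8 lowest. Over all 5503 pairs 153 overlapped IRF1 and 1410 JUNB. The ends also differ in peak strength, with IFNg signals of 119 to 213 at the highest and 12.8 to 27.8 at the lowest. Of shared peaks in strength class 5 of 10, 0% overlapped IRF1 and 8.60% JUNB, against 5.48% and 38.6% in the strongest class. The part played by strength was not tested. The largest ratio was 10.9, at a site inside Naa15, a protein acetyltransferase subunit gene, with a signal of 187 with IFNg and 17.2 untreated. It was 8.87 at a site 12.2 kb from Ifnar1, the gene of a type I interferon receptor chain, with 213 with IFNg and 24.1 untreated. It was 8.69 inside Sh3bp4 and 8.15 inside Tmem104, and 7.93 beside Gbp7, a guanylate-binding protein gene, at a site also within 20 kb of Gbp5, with 147 with IFNg and 18.6 untreated. At the other end, the lowest ratio was 0.685, 59.2 kb from Tnfaip3, the gene of the NF-κB inhibitor A20, with 27.8 with IFNg and 40.5 untreated. The next lowest was 0.721, 109 kb from Bmp2, a bone morphogenetic protein gene, with 24.8 with IFNg and 34.4 untreated.

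The strongest IFNg-only peaks reached the height of the shared ones. The peak at Serpina3f, chr12:104214123-104214677, was the 51st of the IFNg list, with a −log10 p of 292, a fold over input of 78.9 and a summit signal of 167 from 222 fragments. The others among the 8 strongest lay 23.8 kb from Pdp1, a pyruvate dehydrogenase phosphatase gene, 245 kb from Tmem167, a Golgi protein gene, 15.5 kb from Plac8, 8.31 kb from Themis2, a signalling adaptor gene of B cells and macrophages, and 16.8 kb from Tgm2, a transglutaminase gene. Another peak lay inside Lrrc8c, a volume-regulated anion channel gene, and the last of these 8 lay inside Cerkl, a ceramide kinase-like gene. Over the 8 peaks the −log10 p ran from 179 to 292 and the signal from 113 to 167.

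The 8 strongest shared peaks had higher signals still. They lay inside H2aj, a histone gene, Ssh2, a cofilin phosphatase gene, Htra1, a serine protease gene, and Eea1, an early endosome tether gene, 0.064 kb from a start of Prmt3, 0.089 kb from Cotl1, an actin-binding protein gene, 69.7 kb from Cebpb itself and 20.0 kb from Kcnj2, a potassium channel gene. At the site near Cebpb, chr2:167759747-167760470, the signal was 213 with IFNg and 122 untreated. At Prmt3 it was 197 with IFNg and 88.7 untreated. The range over the 8 was 197 to 220.0 with IFNg and 88.7 to 142 untreated.

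The 8 untreated-only peaks were weak. Their nearest genes were Mtm1, Plk2, Med15, Wwox, Cdkn2b, 1700016C15Rik, Tes and Ackr3. Their −log10 p ran from 10.3 to 16 and their signal from 13.1 to 24.1, against an untreated median of 20.4 and 30.2 for the peaks also listed with IFNg.

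IFNg-only and shared peaks lay in similar positions relative to genes. Of peaks with an annotated start on their chromosome, 1353 of 15538 IFNg-only peaks (8.71%, interval 8.27 to 9.16%) and 466 of 5348 shared peaks (8.71%, interval 7.97 to 9.50%) were within 1 kb of a start. Between 10 and 50 kb lay 34.4% of IFNg-only and 35.8% of shared peaks, and beyond 100 kb 22.2% and 22.0%. The median distance to a start was 29.0 kb in both classes. Inside the span of a protein-coding gene lay 54.2% of IFNg-only and 52.8% of shared peaks. Among peaks of the strongest class 6 of 102 IFNg-only peaks were within 1 kb of a start (5.88%, interval 2.19 to 12.4%), against 218 of 1981 shared peaks (11%, interval 9.66 to 12.5%).

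Genes with an untreated peak nearby often had an IFNg-only peak too. The median distance of an IFNg-only peak to the nearest untreated peak was 59.8 kb and 27.8% were within 20 kb, while untreated peaks were a median of 45.7 kb from the next untreated peak and 32.5% were within 20 kb. Of 4521 genes with an untreated peak within 20 kb, 3163 also had an IFNg-only peak (70.0%, interval 68.6 to 71.3%), while 42.0% of all genes had one. Gene length was not matched, and a longer gene span has more room for both kinds of peak.

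Of the 10 genes that were nearest to the most IFNg-only peaks, several lay far from them. Klf6, a zinc finger factor gene, was nearest to 43 IFNg-only and 8 shared peaks, with 4 of the IFNg-only peaks inside the gene and a median distance of 104 kb. Lpp, a focal adhesion protein gene of 599 kb, had 40 IFNg-only and 11 shared peaks, and Zeb2, a zinc finger factor gene of macrophages, had 31 and 11, the IFNg-only ones at a median distance of 576 kb. Cited2, a transcriptional co-regulator gene, had 26 and 14, with 0 of the IFNg-only ones inside it and a median distance of 360 kb. Runx1, a blood cell factor gene, had 24 and 8. Adgrl2 had 21 and 7, at a median distance of 393 kb for the IFNg-only ones, Foxp1 20 and 8, Eea1 19 and 8, Fggy 19 and 3 and Usp25 19 and 4.

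IRF1 was listed at IFNg-only CEBPB sites more often than at shared ones. Of all IFNg CEBPB peaks 5.20% overlapped a peak of the IRF1 list after IFNg. The share was 967 of 15992 IFNg-only peaks (6.05%, interval 5.68 to 6.43%), against 152 of 5507 shared peaks (2.76%, interval 2.34 to 3.23%). Seen from the other list, 969 of 4189 IRF1 peaks after IFNg (23.1%) overlapped an IFNg-only CEBPB peak and 128 (3.06%) an untreated CEBPB peak. These CEBPB sets differ in length, with 15992 and 5540 peaks, and the shares were not adjusted for it. With the 244 peaks of the untreated IRF1 list 0.140% of all IFNg CEBPB peaks overlapped, with 22 IFNg-only and 8 shared peaks.

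Both shares were higher among the strongest peaks. In the strongest class 49 of 106 IFNg-only peaks overlapped IRF1 (46.2%, interval 36.5 to 56.2%), against 112 of 2043 shared peaks (5.48%, interval 4.54 to 6.56%). In the class below it was 20.3% of 488 IFNg-only peaks and 1.93% of 1662 shared peaks, and in the next 11% of 1172 and 0.511% of 978. The difference in percentage points was larger in the stronger of these classes, and the ratio of the shares was smaller. Among shared sites, the 153 pairs that overlapped IRF1 had a median ratio of 3.57 (quartiles 2.79 and 4.40), against 2.40 (quartiles 2.02 and 2.87) for the 5350 pairs that did not. At Themis2, Plac8, Lrrc8c and Cerkl the strong IFNg-only peaks named above overlapped an IRF1 peak, and at Serpina3f, Pdp1, Tmem167 and Tgm2 they did not.

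JUNB, a subunit of AP-1, gave another order once strength was matched. Over all peaks the JUNB list after IFNg, which 19.9% of IFNg CEBPB peaks overlapped, overlapped a smaller share of the IFNg-only peaks (18.1%, interval 17.5 to 18.7%, 2889 peaks) than of the shared peaks (25.4%, interval 24.2 to 26.6%, 1398 peaks). In the strongest class it overlapped 60.4% of IFNg-only peaks (interval 50.4 to 69.7%), against 38.6% of shared peaks (interval 36.5 to 40.8%), and in the next classes down 37.1% against 24.4% and 30.1% against 13.3%. The pooled order therefore runs against the order within each of these classes. The untreated JUNB list, which had been thresholded on p and not q and which 22.8% of IFNg CEBPB peaks overlapped, held 21.7% of IFNg-only and 48.4% of shared peaks of the strongest class. Over all peaks it held 18.2% of IFNg-only and 36.4% of shared peaks, and with peaks of a −log10 q of at least 5 in all lists 7.51% and 16.5%. At shared sites the median ratio was 2.65 for 1410 pairs with a JUNB peak after IFNg and 2.35 for 4093 pairs without.

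**Figure D3:**
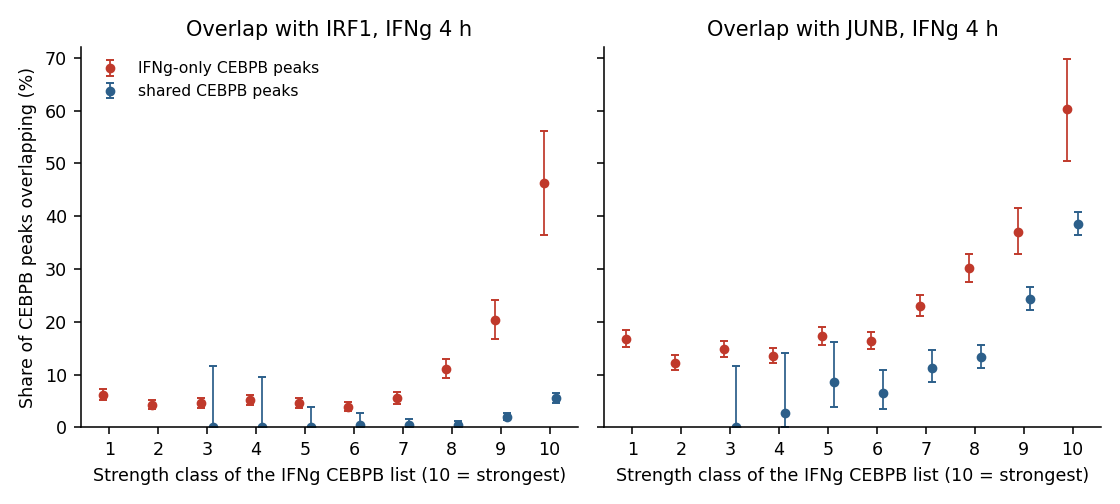
Share of IFNg CEBPB peaks that overlapped an IRF1 peak (left) or a JUNB peak (right) of the lists after 4 h of IFNg, by strength class of the CEBPB list, for IFNg-only (red) and shared (blue) peaks, with exact 95% binomial intervals; classes with under 20 peaks are not drawn. In the strongest class the IRF1 share is 46.2% of IFNg-only and 5.48% of shared peaks, and the JUNB share 60.4% and 38.6%.

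The lists overlapped in part. Of the IFNg-only peaks 497 overlapped both IRF1 and JUNB after IFNg, 470 IRF1 alone, 2392 JUNB alone and 12633 neither. STAT6 after IFNg with IL4, which 31.3% of IFNg CEBPB peaks overlapped, lay at 28.3% of all IFNg-only and 39.9% of all shared peaks. In the strongest class it lay at 61.3% of IFNg-only peaks (interval 51.4 to 70.6%) and 54.0% of shared peaks (interval 51.8 to 56.2%), and these intervals overlap. In class 9 of 10 it lay at 45.9% and 39.1%, again with overlapping intervals. In class 7 it lay at 33.4% of IFNg-only peaks (interval 31.2 to 35.7%) and 23.5% of shared peaks (interval 19.6 to 27.7%). Class 8 had the same order, also with separate intervals. The pooled order of this list therefore runs against the order within these classes. STAT6 after IL4 alone, with 33.4% of all IFNg CEBPB peaks, lay at 28.7% of IFNg-only and 46.9% of shared peaks, and in the strongest class at 35.8% and 61.0%. Of IFNg CEBPB peaks 28.2% were also listed for CEBPB after IFNg with IL4, with 11.6% of IFNg-only and 76.4% of shared peaks. In the strongest class it was 92.5% and 99.6%. The list after IFNg with IL4 held 6278 peaks, too few to overlap most of the 21499 IFNg peaks. Of these 6278 peaks 97.5% overlapped an IFNg CEBPB peak.

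Most IFNg response genes had a CEBPB peak nearby after IFNg, and fewer had one in untreated cells. Of the 35 genes, 33 had an IFNg summit within 20 kb, against 12 with an untreated summit, so 21 had one with IFNg alone and 0 with untreated alone. Over all 21887 protein-coding genes 48.2% had an IFNg summit, 20.7% an untreated one, 27.6% one with IFNg alone and 0.00914% one in untreated cells alone. Among genes with an IFNg summit, 21 of 33 in the list had no untreated one, beside 6036 of 10555 of all genes. Near the IFNg response genes 86 peaks were IFNg-only and 13 shared (13.1%, interval 7.18 to 21.4%), while near all genes 25.6% of 16685 IFNg peaks were shared. The peaks near the list were weaker, with a median −log10 p of 15.8 beside 21.6 near all genes. Among the strongest 30% of the IFNg list 15 peaks near IFNg response genes were IFNg-only and 13 shared (46.4%, interval 27.5 to 66.1%), while 72.6% of 5011 such peaks near all genes were shared.

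The counts were taken again with as many of the strongest IFNg peaks as the untreated list holds. Then 18 of 35 IFNg response genes had an IFNg summit, against 12 with an untreated one, while 20.6% of all genes had an IFNg summit. The 6 genes with a strong IFNg summit and no untreated one, named after their values were seen, were Tap1, the peptide transporter gene, Psmb8 and Psmb9, immunoproteasome subunit genes, Igtp, an immunity-related GTPase gene, and Ifit1 and Ifit2, interferon-induced RNA-binding protein genes. This was 17.1% of the list, beside 3.06% of all genes. Tap1, Psmb8 and Psmb9 share 1 peak, chr17:34201730-34202030, so the 6 genes rest on 4 peaks. No IFNg response gene had an untreated summit without one of these strong IFNg summits.

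**Figure D4:**
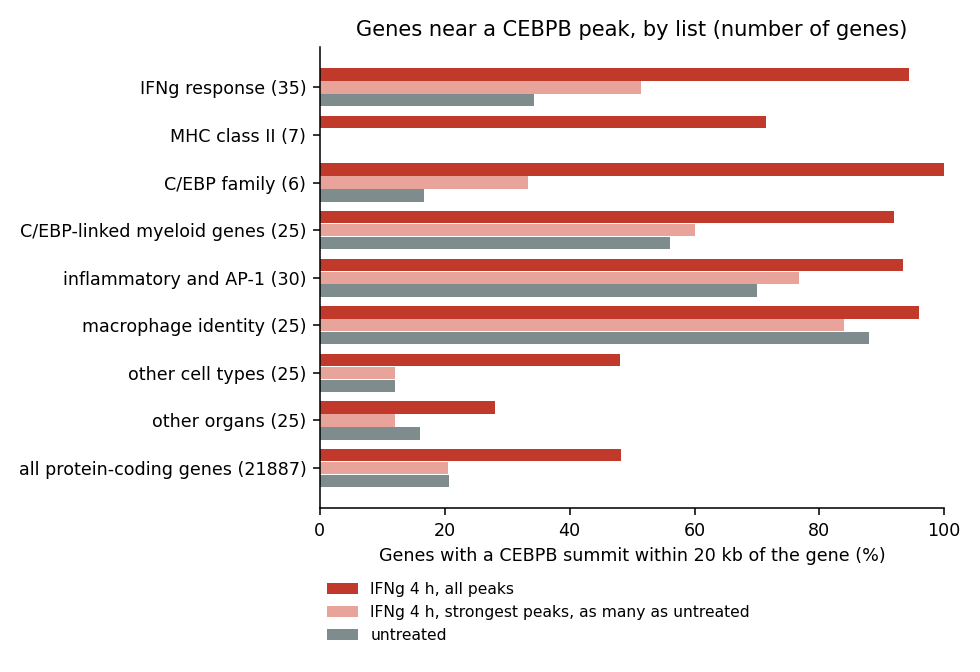
Share of the genes of each list with a CEBPB summit within 20 kb, from all IFNg peaks (dark red), from as many of the strongest IFNg peaks as there are untreated peaks (light red) and from the untreated peaks (grey), with the number of genes in brackets. For IFNg response genes the bars stand at 94.3, 51.4 and 34.3%, and for macrophage identity genes at 96.0, 84.0 and 88.0%.

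Cxcl10, a chemokine gene, had 9 IFNg peaks, 8 of them IFNg-only, against 1 untreated peak. The IFNg-only peak at its start overlapped IRF1 and JUNB and had a summit signal of 43.6. The shared peak lay 19.6 kb upstream, with a signal of 173 with IFNg and 58.4 untreated. Cxcl9, its neighbour, shares 4 of these IFNg-only peaks and had its own shared peak, with 119 with IFNg and 37.1 untreated. Both genes thus had 1 strong site in both libraries and weaker ones listed only with IFNg.

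Rsad2, the gene of the antiviral protein viperin, had 7 IFNg peaks and 1 untreated peak. The shared peak, 3.94 kb upstream, overlapped IRF1 and had a signal of 172 with IFNg and 25.4 untreated, a ratio of 6.76. Gbp5 had 7 IFNg and 2 untreated peaks, and the IFNg-only peak at its start had a signal of 95.4 and overlapped IRF1. Gbp3, of the same family, had 4 IFNg peaks and 1 untreated peak, and the shared peak had 188 with IFNg and 70.8 untreated. Gbp2 had 3 IFNg peaks and 1 untreated peak. Nlrc5, the activator of MHC class I genes, had 8 IFNg peaks and 1 untreated peak, and that shared peak had 95.4 with IFNg and 26.8 untreated.

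Other IFNg response genes had IFNg-only peaks alone. Cd274, which encodes PD-L1, and Irf1 had 7 each, with signals of 12 to 30.8 at Cd274 and 14.3 to 28.5 at Irf1. Ccl5, a chemokine gene, had 6 with a highest signal of 42.8, and B2m, the β2-microglobulin gene, had 5 with a highest of 53.3. Socs1, an inhibitor of cytokine signalling, had 3. Slamf8, a surface receptor gene, had 3 IFNg peaks and 1 untreated peak. Ido1, a tryptophan-degrading enzyme gene, and Irf7, an interferon regulatory factor gene, had none in either library.

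**Figure D5:**
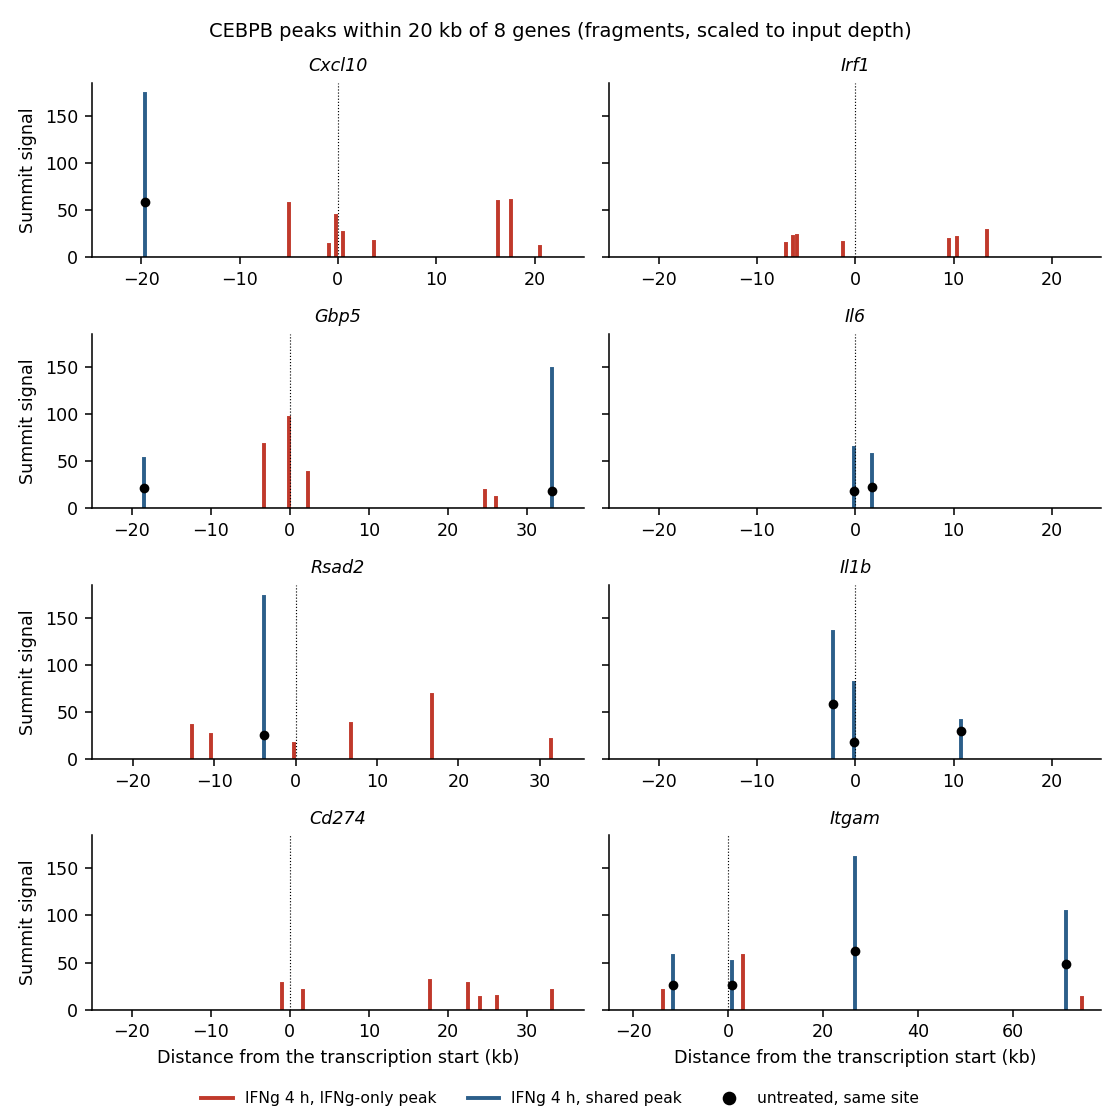
Summit signal of every IFNg CEBPB peak within 20 kb of 8 genes against its distance from the transcription start in kb (negative is upstream), with IFNg-only peaks in red, shared peaks in blue and the untreated signal at the same site as a black point. Cd274 and Irf1 have IFNg-only peaks of at most 30.8, Il6 and Il1b have shared peaks alone, and the shared peak of Rsad2 has 172 with IFNg and 25.4 untreated.

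Peaks near MHC class II genes were weak. Of 7 genes 5 had an IFNg summit within 20 kb, beside 48.2% of all genes, and 0 had an untreated one, beside 20.7% of all genes. All 9 peaks lay outside the strongest 30% of the list, as did 11674 of 16685 peaks near all genes. H2-DMa, a peptide-loading chaperone gene, had 4, Ciita, the master activator of the class, and Cd74, the invariant chain gene, had 2 each, and H2-DMb1 and H2-Eb1 had 1 each, with 1 peak counted for both H2-DM genes. H2-Aa and H2-Ab1 had none. The 9 peaks had a median −log10 p of 13.2, beside 21.6 for peaks near all genes.

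All 6 genes of the C/EBP family had an IFNg summit within 20 kb, beside 48.2% of all genes. Of the 6, 1, Ddit3, had an untreated one, beside 20.7% of all genes. With as many of the strongest IFNg peaks as untreated peaks, 2 of the 6 had an IFNg summit, beside 20.6% of all genes. Ddit3, the stress-induced member CHOP, had 5 IFNg and 3 untreated peaks. Its shared peak 0.306 kb from the start had a signal of 96.1 with IFNg and 35.7 untreated. Cebpg, a member without an activation domain, had 5 IFNg-only peaks with signals of 15.0 to 56.3. Cebpd had 1 IFNg-only peak of 67.6, Cebpa 2 of at most 32.3, Cebpb itself 1 of 35.3 and Cebpe 1 of 10.5. The strong shared peak 69.7 kb from Cebpb lies outside this window.

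Of the 25 genes linked to C/EBP factors in myeloid cells 23 had an IFNg summit, beside 48.2% of all genes, and 14 had an untreated one, beside 20.7% of all genes. Near them 38 peaks were IFNg-only and 31 shared (44.9%, interval 32.9 to 57.4%), beside 25.6% shared near all genes. In the strongest 30% of the list 3 were IFNg-only and 26 shared (89.7%, interval 72.6 to 97.8%). Near all genes 72.6% of 5011 such peaks were shared. The peaks near the C/EBP-linked genes had a median −log10 p of 29.0, above the 21.6 of peaks near all genes. Lcn2 and Mpo, a siderophore-binding protein gene and the myeloperoxidase gene of granulocytes, had no peak. No gene of the 4 lists described had an untreated peak and no IFNg peak.

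The cytokine and chemokine genes of this list differed in their share of IFNg-only peaks. Il10, the interleukin 10 gene, had 2 peaks, both IFNg-only. Il1b, the interleukin 1β gene, had 3 IFNg peaks, all shared, and the one 0.079 kb from the start had a signal of 81.1 with IFNg and 17.9 untreated. A peak 2.25 kb from its start had 135 with IFNg and 58.4 untreated. Il6 had 2 shared peaks: the one at the promoter shown above had 63.8 with IFNg and 17.9 untreated. Ptgs2 had 1 shared peak, on its promoter palindrome, with 161 with IFNg and 52.9 untreated. Il1rn, the gene of the interleukin 1 receptor antagonist, had 3 IFNg peaks and 1 untreated peak, and the shared one 0.025 kb from a start had 198 with IFNg and 83.8 untreated. Cxcl2, a neutrophil chemokine gene, had 3 IFNg and 2 untreated peaks, and Ccl3, another chemokine gene, had 7 and 3.

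The receptor and granule genes differed among themselves. Csf3r, the G-CSF receptor gene, had 5 IFNg and 2 untreated peaks, and the shared one at its start had 114 with IFNg and 34.4 untreated. Itgam, the CD11b gene, and Cd14, the lipopolysaccharide co-receptor gene, had 7 IFNg and 4 untreated peaks each. The strongest peak of Itgam, inside the gene, had 161 with IFNg and 62.5 untreated. Clec4e, the gene of the receptor Mincle, had 5 IFNg and 3 untreated peaks, and Lyz2, the macrophage lysozyme gene, 3 and 2. Ltf, the lactoferrin gene, had 5 IFNg-only peaks, Csf1r, the M-CSF receptor gene, had 3 and Csf2ra, the GM-CSF receptor gene, had 2.

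Markers of the labelled cell type, macrophages, were near CEBPB peaks in both libraries: 24 of 25 had an IFNg summit, against 22 with an untreated one. Of 25 genes of other cell types 12 had an IFNg summit, against 3 with an untreated one, and of 25 genes of other organs 7 did, against 4. As shares these were 96.0% with IFNg and 88.0% untreated for the macrophage list, 48.0% and 12% for other cell types and 28.0% and 16% for other organs, beside 48.2% and 20.7% of all genes. Binding near a gene is not its expression, which was not measured in these libraries. Of the 121 peaks near macrophage identity genes 66 were IFNg-only and 55 shared (45.5%, interval 36.4 to 54.8%). Of the 102 near inflammatory and AP-1 genes 65 were IFNg-only and 37 shared (36.3%, interval 27 to 46.4%). Near all genes 25.6% of 16685 IFNg peaks were shared. The peaks near these lists were stronger, with a median −log10 p of 32.4 and 28.2, beside 21.6 near all genes. In the strongest 30% of the IFNg list 85.7% and 72.7% of them were shared, beside 72.6% near all genes. Some genes stand in more than 1 list, such as Itgam and Lyz2.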

How the data were processed

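The deposited narrowPeak lists were used as they stood. Per the submitters' processing notes, the authors used the aligner Bowtie2 (2.2.6), the peak caller MACS2 (2.1.0.20150731) and build mm10 (GRCm38). Their settings are not stated in the labels. Each list comes from 1 library against input, so values describe these libraries and no replicate spread exists. The deposited fold of a peak is the ratio of its summit signal to control, and the deposited −log10 p and −log10 q are the authors' values per peak. The deposited score is 10 times the −log10 q, except in the untreated JUNB list, where it is 10 times the −log10 p. The last column deposited by the authors is the summit offset in bp, a count of bases from the peak start. Fold and −log10 p as deposited were used to rank or describe peaks within a list, and to recover the summit signal, which was compared between lists.

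The summit signal and the depth relative to the input were recovered by solving the fold, (signal + 1)/(background + 1), together with the Poisson −log10 p. Signals lie on whole fragments at 1 depth per library, within 0.05 fragments. This assumes that 1 input served both lists with linear scaling. The steps were recovered on simulated peaks of known depth and signal. Those peaks were made with the same formulas, so they check the solving and cannot test the assumption. Before scaling to input depth, summits held 12 to 295 fragments (median 40) in the IFNg library and 15 to 226 (median 44) in the untreated library, which was the deeper one.

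Gene spans (21887 protein-coding genes) and promoters came from RefSeq tables of GRCm38.p6. Starts were at hand for 17492 of these genes (79.9%), and for none on chromosome 18, which leaves 613 IFNg peaks without a start distance. The nearest gene was therefore taken by gene span, not by start as first planned. Genes named by rule were up to 12 per list with the most IFNg peaks within 20 kb, in the IFNg response, MHC class II, C/EBP family and C/EBP-linked lists, the nearest genes of the 8 strongest peaks per class, and the 10 genes nearest to the most IFNg-only peaks. Of genes tied at the last place of a list not all are named, and Il6, Ptgs2 and Il10 were named after their values were seen. The comparison, the 8 gene lists and the rules were chosen with earlier results of these data known. The groups had 1 replicate each, so no test was made. Shares carry exact Clopper-Pearson 95% intervals. Python 3.11.15, numpy 2.4.6, pandas 2.3.3, scipy 1.17.1 and matplotlib 3.10.9 were used.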

Additional observations from a re-analysis of the deposited data

How the results depend on the processing

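No paired analysis was possible because each group was 1 library, and leaving out a replicate was not possible for the same reason. A reciprocal overlap of 50% lowered the untreated peaks kept to 78.2% and the IFNg peaks also untreated to 20.2%, with 1207 untreated-only peaks; IRF1 then overlapped 1.62% of shared peaks and JUNB after IFNg 19.3% of IFNg-only and 22.5% of shared peaks. With summits within 100 bp 98.8% of untreated peaks were kept and 68 were untreated-only. With as many of the strongest IFNg peaks as untreated peaks (5540), 1200 peaks were IFNg-only and 1175 untreated-only, and the shares were 78.8% of untreated and 78.3% of IFNg peaks. Genes near a peak then numbered 4517 with IFNg, 670 with IFNg alone and 674 with untreated alone, with 18 IFNg response genes; 8.08% of IFNg-only peaks were within 1 kb of a start. IRF1 overlapped 19% of IFNg-only and 3.41% of shared peaks, and JUNB after IFNg 37.1% and 29.6%, the reverse of its order over all peaks. Dividing IFNg signals by the median ratio, added after seeing the data, gave 96.8% of untreated and 48.6% of IFNg peaks shared, 5649 IFNg-only and 177 untreated-only peaks, and 2794 and 51 genes near a peak in IFNg or untreated cells alone. Windows of 5 and 50 kb put 2972 and 7000 genes near an untreated peak and 1 near an untreated peak alone, with 7 IFNg response genes near an untreated peak at 5 kb. A −log10 q of at least 5 left 1 gene near an untreated peak alone, and 5.49% (IRF1) and 17.1% (JUNB after IFNg) of IFNg-only peaks overlapping. Starts of all annotated genes put 10.7% of IFNg-only and 10.8% of shared peaks within 1 kb. The causes were not tested. These were 37 of 82 recomputed values of the main comparisons; the other 45 stayed within their interval or within 1.5 times the count. Of 84 recomputed values for single lists, positions and other factors 34 moved further than that, such as MHC class II genes near an IFNg peak, which were 0 with as many of the strongest IFNg peaks as untreated peaks. Depth limits the weak end of each list: the lowest summits held 12 fragments with IFNg and 15 untreated before scaling, or 9.01 and 10.3 scaled to input depth.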
